A study of Mus musculus with 2 samples.

Results

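Collagens are the main structural proteins of the extracellular matrix, and their transcripts were compared here between wild-type mouse kidney and kidney of the B6C3Fe a/a-bpck mutant, both at postnatal day 3. The members were all probe sets whose only deposited symbol has the form Col, a number, a and a number. This rule found 78 of 45037 probe sets, for 39 of 20660 genes. Total RNA of each kidney sample was read on 1 Affymetrix Mouse 430 2.0 array, so there were 2 arrays and 1 per group. Both samples share the tissue and the age. The wild-type label names no strain, the mutant label names no gene, and neither says how many animals or which sex gave the RNA. Without replicates no test was possible, and each difference below describes these 2 arrays only. Precision is limited by the number of arrays.

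Each collagen molecule is a triple helix of 3 chains. Fibrillar collagens assemble into the banded fibres of connective tissue, which fibroblasts and other stromal cells make. Type IV collagen forms the sheet-like network of basement membranes, and in the mature glomerular filter the chains of Col4a3, Col4a4 and Col4a5, made by podocytes, form its main network. Inherited loss of any of these chains causes Alport syndrome, a hereditary kidney disease. The remaining types decorate fibres, anchor membranes or span the cell surface.

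The values are dChip expression indices, linear measures of how brightly a probe set glowed, here called intensity. A floor of 4.2, the 20th percentile over both arrays, replaced lower intensities before log2 was taken, and a difference is mutant minus wild type. A gene stood above the filter if the mean of its 2 log2 intensities reached the median of all values (16.53), and the probe set with the highest mean represents it. Of the 39 collagen genes 31 passed, and of their 78 probe sets 54. One bright array can carry a gene past this filter: Col4a6, Col22a1 and Col24a1 were the 3 collagen genes that passed with 1 array under 16.53. Col6a4, Col6a5, Col6a6, Col21a1, Col26a1 and Col28a1 had no member probe set and were not analysed here. Where a gene is given a pair of readings, the wild-type array comes before the mutant array. The intensities of different probe sets cannot be set against each other as amounts of RNA. Total intensity was 5173132 for the wild-type array and 5175900 for the mutant array. The kidney markers Umod, Slc12a1, Slc34a1, Lrp2, Slc12a3, Aqp2, Cdh16 and Pax8 were all above the filter, with summed intensities of 8258 and 8451.

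To show the regulatory sequence beside 5 members on which the account turns, the 250 bases before the annotated start are printed from 5′ to 3′, from RefSeq's GRCm38.p6 table. Col8a1 and Col8a2 had the least equal log2 differences among the 11 pairs of partner chains compared, Col6a1 stands for the type VI chains, and Col1a2 and Col3a1 stand for the fibrillar chains. Capitals mark 3 motifs searched on both strands: the TATA box (TATAAA), the CCAAT box (CCAAT) and the GC box (GGGCGG). Where matches touch or overlap, their capitals run together.
Col8a1, chr16:57754738-57754987, minus strand: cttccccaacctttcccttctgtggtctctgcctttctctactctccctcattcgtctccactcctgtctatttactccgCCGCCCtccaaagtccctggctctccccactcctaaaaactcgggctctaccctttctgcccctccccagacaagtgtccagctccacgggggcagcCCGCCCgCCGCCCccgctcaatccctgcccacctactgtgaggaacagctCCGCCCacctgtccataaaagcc
Col8a2, chr4:126286544-126286793, plus strand: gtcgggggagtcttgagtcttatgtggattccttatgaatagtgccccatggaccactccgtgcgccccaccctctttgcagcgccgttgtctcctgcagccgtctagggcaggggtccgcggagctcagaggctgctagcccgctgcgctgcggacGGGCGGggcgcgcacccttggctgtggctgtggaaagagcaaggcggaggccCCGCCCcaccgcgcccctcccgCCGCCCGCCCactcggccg
Col6a1, chr10:76726045-76726294, minus strand: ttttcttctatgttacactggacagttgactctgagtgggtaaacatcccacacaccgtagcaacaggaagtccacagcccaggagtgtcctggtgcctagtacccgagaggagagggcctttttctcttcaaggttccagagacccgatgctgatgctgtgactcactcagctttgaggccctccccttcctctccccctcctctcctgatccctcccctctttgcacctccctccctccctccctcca
Col1a2, chr6:4505368-4505617, plus strand: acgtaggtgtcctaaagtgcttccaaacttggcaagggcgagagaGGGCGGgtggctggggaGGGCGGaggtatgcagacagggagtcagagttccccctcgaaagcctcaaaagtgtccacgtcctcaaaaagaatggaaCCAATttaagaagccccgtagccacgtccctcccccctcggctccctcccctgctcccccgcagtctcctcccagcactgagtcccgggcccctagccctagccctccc
Col3a1, chr1:45311288-45311537, plus strand: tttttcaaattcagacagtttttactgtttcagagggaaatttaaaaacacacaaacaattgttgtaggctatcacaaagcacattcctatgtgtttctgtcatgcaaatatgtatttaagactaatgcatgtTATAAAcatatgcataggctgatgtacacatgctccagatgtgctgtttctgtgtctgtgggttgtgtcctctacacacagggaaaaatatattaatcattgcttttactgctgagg

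These windows differed in their letters. The Col8a1 and Col8a2 windows held 4 GC box matches each, and 2 of those of Col8a2 overlap. The Col1a2 window held 2 GC box matches and a CCAAT match. The single match of the Col3a1 window was a TATA box 112 to 117 bases before the start, and the Col6a1 window held none of the 3 motifs. Among 32851 promoter windows of the same length, 12.4% held the TATA box, 33.8% the CCAAT box and 32.7% the GC box. The table held 31 of the 39 collagen genes, of which 5 had the TATA box, 12 the CCAAT box and 18 the GC box in at least 1 window. These are counts of genes, over 34 windows, while the percentages are shares of windows, so the measures differ. A match is a description of letters and no evidence of binding.

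Collagen genes were about evenly divided between higher and lower in the mutant array. The median log2 differences of the fibrillar, type IV and other genes were 0.03, 0.06 and -0.02. All 3 were smaller than the scatter between probe sets of a gene given below. Of the 31 genes above the filter, 17 were higher and 14 lower in the mutant array, and the median log2 difference was 0.01. Among all 12759 genes above the filter, 48.2% were higher, with a median of -0.01. The SD over the collagen genes was 0.35, beside 0.27 over all genes. At least 1.5-fold apart were 4 collagen genes (12.9%), 2 higher and 2 lower, beside 1.55% of all genes higher and 1.72% lower, together 3.28%. Of the 2 lower, Col24a1 passed the filter through its wild-type array, with its mutant array under it. At least 25% apart, the higher array over the lower, were 7 collagen genes, beside 13.1% of all genes, so 77.4% of collagen genes and 86.9% of all genes differed by less. Setting array medians equal adds the same 0.07 to every log2 difference before the floor. With it, 20 collagen genes were higher and 11 lower, 64.5% beside 65.1% of all genes, and their median was 0.08 beside 0.07. In RNA of whole kidney, fewer cells of a type and less RNA per cell cannot be told apart. Sex-linked transcripts differed together with genotype: Xist read 4.67 and 1113, and the mutant array was lower for the 4 measured Y-linked genes, Ddx3y reading 394 and 84.2. Sex and genotype therefore cannot be told apart in any difference reported here.

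The larger differences lay among dimmer genes. On their representing probe sets the 20 collagen genes at or above the 75th percentile of intensity (83.51) all differed by less than 25%. Of all such genes 5.88% were at least 25% apart and 1.24% were 1.5-fold apart. Other bright probe sets of these collagen genes passed 25%. Those of Col18a1 and Col4a5 were 1.32-fold and 1.26-fold higher, and those of Col5a2 and Col3a1 were 1.30-fold and 1.27-fold lower. The 7 genes at least 25% apart came from the 11 dimmer collagen genes, a range in which 23.6% of all genes were at least 25% apart and 6.21% were 1.5-fold apart. Col8a1, Col9a1, Col24a1 and Col25a1 were the 4 genes at least 1.5-fold apart. Among these, Col24a1 passed the filter (16.53) through its wild-type array (23.85), its mutant array reading 13.8. In the authors' deposited table the lower bound of the fold, which rests on the probes of each array and not on animals, was also 1.5 or more for all 4.

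**Figure D1:**
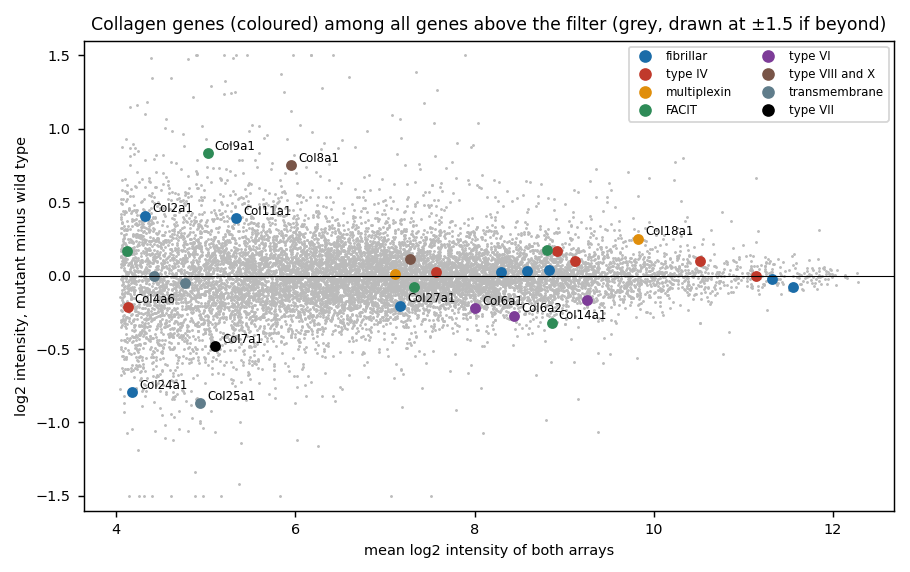
Log2 difference, mutant minus wild type, of the probe set that represents each gene, against its mean log2 intensity over both arrays. Grey points are all genes above the filter, drawn at the edge if beyond 1.5, and coloured points are the 31 collagen genes by class, of which the 20 at or above the 75th percentile all differ by less than 25%.

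The main fibrillar collagens of connective tissue differed little on the brightest probe set of each gene and, as deposited, were lower on all the others. Type I collagen is built from the chains of Col1a1 and Col1a2, and type III, its companion in soft tissue, from Col3a1. Col1a1 read 449.5 in the wild type and 462 in the mutant on one probe set and 449.6 and 431 on the other. Col1a2 read 2570.2 and 2527 on its brightest probe set, a log2 difference of -0.02 that turns positive when array medians are set equal. Its other probe sets read 1365 and 1309, and 19.13 and 16.15, both lower. On their brightest probe sets the 2 chains of type I differed from each other by 0.06 in their log2 differences. Col3a1 read 3092 and 2925 on its brightest probe set, a 1.06-fold lower value. Its other probe set read 728 and 571, a 1.27-fold lower value.

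Type V collagen is a minor component that nucleates fibres of types I and III. Col5a1 read 309.8 in the wild type and 316 in the mutant on its brightest probe set, with log2 differences from -0.13 to 0.03 over 3 probe sets. Col5a2 read 379 and 387 on one probe set and 274 and 211 on the other, log2 differences of 0.03 and -0.38. The direction for Col5a2 therefore depends on the probe set. Over the 12 probe sets of Col1a1, Col1a2, Col3a1, Col5a1 and Col5a2, 3 were higher and 9 lower (median -0.07), where 53.7% of all probe sets were lower, and with array medians set equal 6 were higher and 6 lower.

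The other fibrillar chains were spread more widely and were mostly dim. Col2a1 and Col11a1, chains best known from cartilage, were higher in the mutant array. Col2a1 read 17.4 and 23.1, 1.33-fold higher, and Col11a1 read 35.3 and 46.25, 1.31-fold higher, both on dim probe sets. Col24a1, a fibrillar chain of developing bone, read 23.85 and 13.8, 1.73-fold lower on its single probe set. Col27a1, a chain of developing cartilage, read 154 and 134, 1.15-fold lower, and its dimmer probe set read 67.7 and 56.99. Col5a3 and Col11a2 did not pass the filter. Of the 9 fibrillar genes above it 5 were higher and 4 lower, and the median log2 difference was 0.03. That median was -0.11 when all probe sets of a gene above the filter were averaged. Of the 18 fibrillar probe sets above the filter, 6 were higher and 12 lower, where 46.3% of all probe sets were higher.

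**Figure D2:**
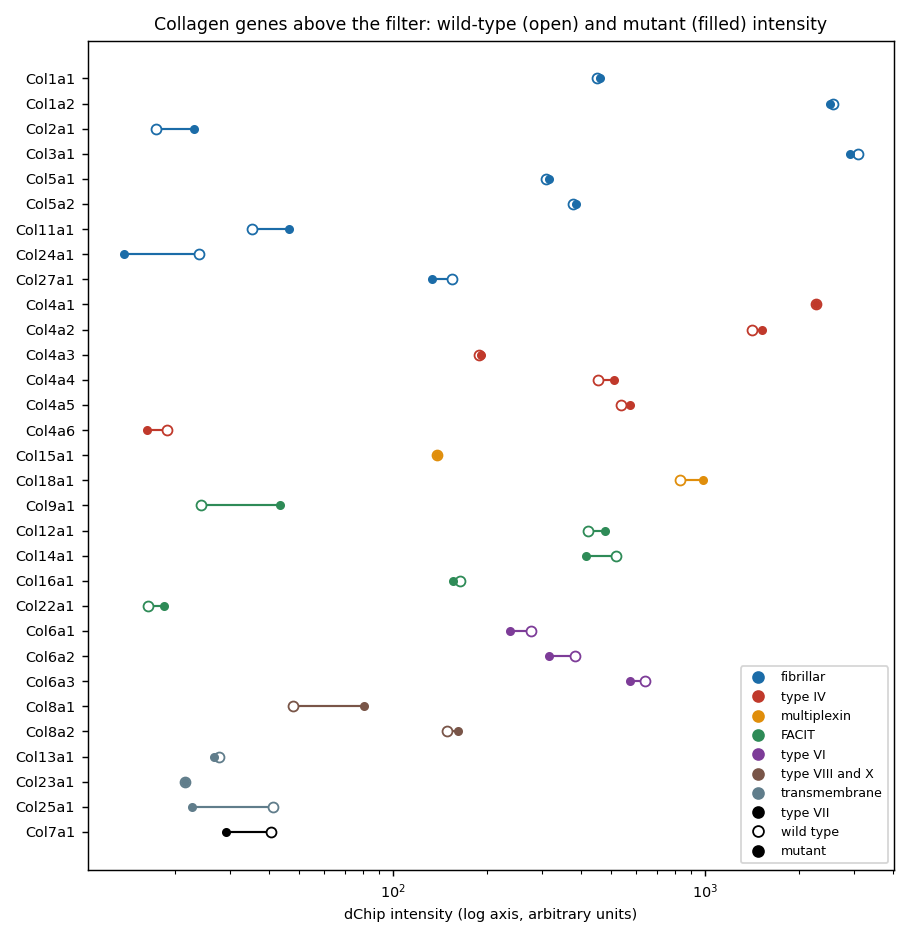
Intensity of the probe set that represents each of the 31 collagen genes above the filter, on a log axis, with the wild-type array as an open circle and the mutant array as a filled circle, coloured by class. Most circles nearly coincide, the 3 type VI genes lie lower in the mutant array, and Col8a1, Col9a1, Col24a1 and Col25a1 show the widest gaps.

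Type IV collagen, the basement membrane network, had small differences, positive for 4 of its 6 genes. Its widespread form is made of the chains of Col4a1 and Col4a2, which lie head to head in the genome. Col4a1 read 2267 in the wild type and 2265 in the mutant on its brightest probe set, and 1055 and 1133 on the other. The first of these log2 differences, -0.001, turns positive when array medians are set equal. Col4a2 read 1419 and 1520.3, 1.07-fold higher. These bright values leave the widespread chains within 1.1-fold of each other between the arrays.

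The 3 chains of the mature glomerular network were higher on every probe set. Col4a3 read 188 in the wild type and 191 in the mutant on its brightest probe set, and 41.7 and 49.15 on the other. Col4a4 read 456 and 511, 318 and 378, and 43.5 and 57.9 on its 3 probe sets, higher by 1.12-fold, 1.19-fold and 1.33-fold. All 7 probe sets of Col4a3, Col4a4 and Col4a5 were therefore higher, with log2 differences from 0.02 to 0.41 and a median of 0.24. Of all probe sets above the filter 46.3% were higher. Col4a5, whose gene lies on the X chromosome, read 537 and 576 on one probe set and 115 and 144 on the other. For each of these genes the dimmest probe set had the largest log2 difference. The 7 probe sets were also all higher with median, quantile and loess scaling, though with median scaling 65.1% of all genes were higher.

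Markers of podocytes, which make these chains in the glomerular filter, lay on the other side of 0. All 9 podocyte markers were lower in the mutant array, with a median log2 difference of -0.39 and summed intensities of 3527 in the wild type and 2687 in the mutant. Wt1, a podocyte transcription factor, read 297 and 230.2. The part of the podocyte markers in the type IV values was not tested.

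Col4a6, the partner of Col4a5 in other basement membranes, stood just above the filter. It read 18.8 in the wild type and 16.2 in the mutant on one probe set and 15.9 and 17.6 on the other, so its direction depends on the probe set. Of the 6 type IV genes 4 were higher and 2 lower (median log2 difference 0.06), beside 48.2% of all genes higher. With array medians set equal 5 were higher, beside 65.1% of all genes. Among the 12 type IV probe sets, all above the filter, 10 were higher and 2 lower, where 46.3% of all probe sets were higher.

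Col18a1 and Col15a1 encode the multiplexins, collagens of the basement membrane zone whose ends release the fragments endostatin and restin. Col18a1 read 831 in the wild type and 988 in the mutant on one probe set and 699 and 921 on the other, 1.19-fold and 1.32-fold higher. Col15a1 read 138 and 139, a log2 difference of 0.01. The multiplexins thus differed from each other in these arrays, Col18a1 having the largest positive log2 difference among the representing probe sets of the 20 brighter collagen genes. Endothelial markers, cells that border on such membranes, were lower for 8 of 10, with a median of -0.18 and summed intensities of 2336 and 2101. Their part in the Col18a1 and Col15a1 values was not tested.

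**Figure D3:**
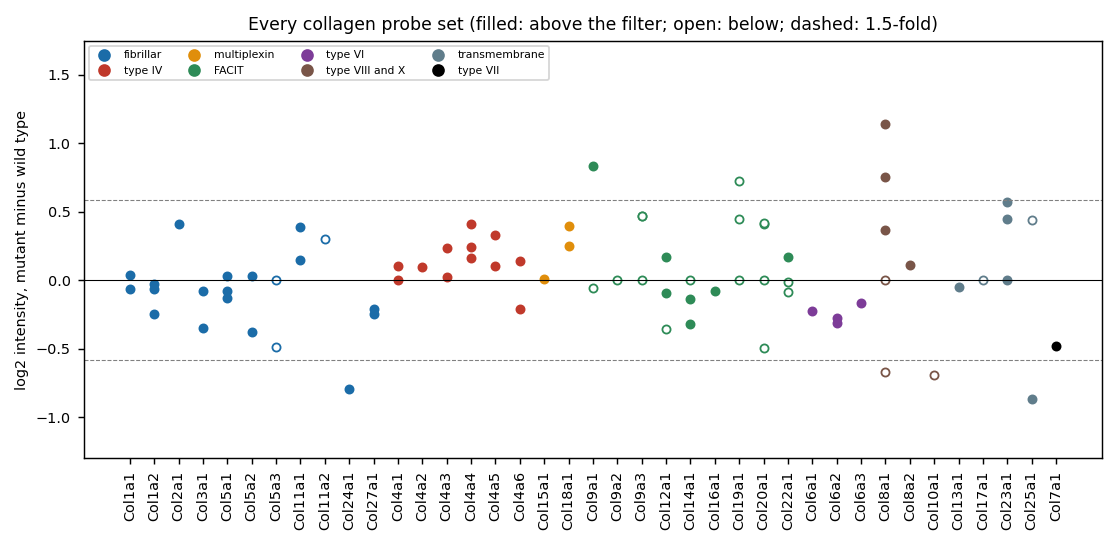
Log2 difference, mutant minus wild type, of every one of the 78 collagen probe sets, placed by gene and coloured by class. Filled points are above the filter, open points below it, and dashed lines mark 1.5-fold; the type IV genes Col4a3, Col4a4 and Col4a5 lie above 0 and the type VI genes below it on all their probe sets.

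Type VI collagen, which forms beaded filaments around cells, was lower in the mutant array on every probe set. Its classical molecule joins the chains of Col6a1, Col6a2 and Col6a3. Col6a1 read 277 in the wild type and 237 in the mutant, 1.17-fold lower. Col6a2 read 382 and 316 on one probe set and 339.6 and 274 on the other, 1.21-fold and 1.24-fold lower. Col6a3 read 645 and 576, 1.12-fold lower. The 3 partner chains lay within 0.11 of one another in their log2 differences. All 4 probe sets were also lower under median, quantile and loess scaling, where as deposited 53.7% of all probe sets were lower.

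Among the FACIT collagens, which attach to the surface of fibres, the brighter members went in opposite directions. Col14a1, found on fibres of skin and tendon, read 519 in the wild type and 415 in the mutant, and 169 and 154 on its other probe set above the filter. Among the probe sets that represent the 20 brighter collagen genes, its brighter one had the largest negative log2 difference (-0.32), while the dimmer probe sets of Col3a1 and Col5a2 lay lower (-0.35 and -0.38). Without probe sets of the suffixes _x_at, _s_at and _a_at its log2 difference was -0.14. Col12a1, a related chain, read 423 and 477, 1.13-fold higher, while its dimmer probe set above the filter read 22.95 and 21.5. Col16a1 read 164 and 155, 1.06-fold lower. Col9a1, a chain of cartilage and of the eye, was 1.78-fold higher on a dim probe set that read 24.3 and 43.3. Its other probe set, below the filter, read 6.24 and 5.99, in the opposite direction. Col22a1 read 16.4 and 18.4, just above the filter.

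Stromal transcripts were mostly lower beside these values. Of 10 stroma and fibroblast markers 8 were lower, with a median log2 difference of -0.20 and summed intensities of 4376 in the wild type and 4234 in the mutant, and 7 were lower with array medians set equal. Dpt and Lum, which encode matrix proteins that bind collagen fibres, had the largest falls and read 49.5 and 23.7, and 159 and 109. Pdgfra, Pdgfrb and Meis1 were lower by less, with log2 differences of -0.15, -0.16 and -0.03. Tcf21 and Ntn1 were the 2 markers that were higher, reading 1555 and 1724, and 149 and 229. Adrenal transcripts were mostly lower too: of the 12 markers measured, whether above the filter or not, 11 were lower and Cyp11a1 was higher (5.69 and 9.7), with summed intensities of 680 and 88.7. Of these Chga, Cyp11b1, Cyp11b2, Hsd3b1 and Scg2 were under the floor in the mutant array. The part of stromal or adrenal tissue in the type VI and Col14a1 values was not tested.

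Type VIII collagen forms a hexagonal lattice in vessel walls and in Descemet's membrane of the cornea. Col8a1, one of its chains, read 47.8 in the wild type and 80.4 in the mutant on its brightest probe set, 1.68-fold higher. Its other probe sets above the filter read 24.7 and 54.6, and 23.0 and 29.8. All 3 were therefore higher, by 1.29-fold to 2.21-fold, and the probe set at 2.21-fold was the only collagen probe set above the filter that was 2-fold apart. Another read 6.69 and 2.46, below the filter and in the opposite direction, and the last lay under the floor in both arrays. Col8a2, its partner, read 149 and 161, 1.08-fold higher. The log2 difference of Col8a1 exceeded that of Col8a2 by 0.64, a comparison that does not depend on a constant scaling of either array. It does depend on the probe set, since those of Col8a1 above the filter spanned 0.37 to 1.14. It also depends on the handling of dim values: with a pseudocount of 32 the log2 differences of Col8a1 and Col8a2 were 0.50 and 0.10. Col10a1, the chain of growth cartilage, did not pass the filter.

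Smooth muscle and macrophage markers were higher in the same array. All 7 smooth muscle markers were higher, with a median log2 difference of 0.30 and summed intensities of 2949 in the wild type and 3699 in the mutant. Acta2, smooth muscle actin, read 2068 and 2548, and Tagln read 591 and 802. Of 7 macrophage markers 5 were higher, with summed intensities of 719 and 917. With quantile or loess scaling 6 of them were higher. With array medians set equal all 7 were, where 65.1% of all genes were higher. Their part in the Col8a1 value was not tested.

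The transmembrane collagens and type VII were dim. Col25a1, a neuronal membrane collagen, read 41.3 in the wild type and 22.6 in the mutant, 1.83-fold lower, while its other probe set, below the filter, read 10.99 and 14.9. The probe sets of Col25a1 thus disagreed in direction. Col13a1 read 27.7 and 26.8, a log2 difference of -0.05 that turns positive under median, quantile and loess scaling. Col23a1 read 21.46 and 21.47 on its brightest probe set, but 16.1 and 23.9, and 15.6 and 21.3, on the others. Col7a1, which anchors epithelia to the tissue beneath, read 40.7 and 29.2, a log2 difference of -0.48 on its single probe set. Col5a3, Col11a2, Col9a2, Col9a3, Col10a1, Col17a1, Col19a1 and Col20a1 were the 8 collagen genes below the filter, with intensities of their brightest probe sets from 1 to 19.5. Of these, Col9a2 and Col17a1 were under the floor in both arrays.

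Cartilage is the usual source of Col2a1, Col9a1 and Col11a1, and its markers were mixed. Of the 10 listed cartilage and bone markers 9 were measured and 4 passed the filter, 2 higher and 2 lower, with summed intensities of 298 in the wild type and 369 in the mutant. Of all 9 measured, 5 were higher and 4 lower. Acan, the main cartilage proteoglycan, read 5.68 and 5.33, and Matn1, a cartilage matrix protein, read 5.57 and 5.92, both below the filter, as were Matn3 (1.8 and 7.53), Ibsp (9.68 and 14.9) and Comp (8.98 and 5.43). Above it, Alpl, a phosphatase of bone that other tissues also express, read 74.8 and 137, and Runx2, a transcription factor of bone, read 40.9 and 51.1. Sp7, another such factor, read 57.6 and 50.2, and Sox9, a transcription factor of cartilage that is also active in kidney, read 93.4 and 92.1. The part of cartilage or bone in the values of Col2a1, Col9a1 and Col11a1 was not tested.

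Probe sets of 1 gene give a measure of technical scatter, since they read the same RNA. Above the filter 18 collagen genes had several probe sets, of which 12 agreed in direction and 6 did not. Within a gene, the SD of its probe sets' log2 differences had a median of 0.14 over these 18 genes, and 0.12 over 5035 genes of the whole array. Differences such as those of Col1a1, Col5a1 or Col15a1 were smaller than this scatter. The type VI chains, Col14a1, Col18a1 and Col8a1 differed by more than 0.14 on their representing probe set. Among type IV genes Col4a4 (0.17) and the dim Col4a6 (-0.21) did so in opposite directions, while Col4a1, Col4a2, Col4a3 and Col4a5 did not. Col12a1 and Col27a1 also passed 0.14, as did the dim Col2a1, Col7a1, Col9a1, Col11a1, Col22a1, Col24a1 and Col25a1. This scatter holds no variation between animals. Of the 54 collagen probe sets above the filter 5 were at least 1.5-fold apart, beside 4.05% of all probe sets.

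Genes that modify, export and assemble collagen were close to equal. Of 51 such genes 49 were measured and 40 passed the filter, of which 23 were higher and 17 lower in the mutant array (median log2 difference 0.04). On its representing probe set none of the 40 was 25% apart, beside 13.1% of all genes. Most of the 40 were bright, and of all genes at or above the 75th percentile of intensity only 5.88% were 25% apart. Ddr1, Itga1 and Tmem38b passed 25% on other probe sets above the filter, reaching 1.47-fold, 1.27-fold and 1.27-fold higher. A Tgm2 probe set described below did so too. With array medians set equal 33 were higher and 7 lower, 82.5% higher beside 65.1% of all genes, at a median of 0.11 beside 0.07. That scaling shifts every gene alike.

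Hydroxylation of proline and lysine stabilises the helix and prepares its cross-links. P4ha1, the catalytic subunit of prolyl 4-hydroxylase, read 295 in the wild type and 341 in the mutant, 1.16-fold higher. Its partner P4hb read 1334 and 1254, 1.06-fold lower, and Plod1, a lysyl hydroxylase, read 76.1 and 80.2. P3h3, Colgalt2 and P3h2 had the largest differences among the 14 modifying genes above the filter. P3h3 and P3h2 belong to the prolyl 3-hydroxylase family and were 1.21-fold and 1.16-fold higher, and Colgalt2, a collagen galactosyltransferase, was 1.17-fold higher. Of the 14 genes 8 were higher and 6 lower, and the median was 0.04.

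Folding and export need a collagen chaperone and enlarged transport vesicles. Serpinh1, the chaperone of the helix, read 1500.4 in the wild type and 1479 in the mutant, a log2 difference of -0.02 that turns positive when array medians are set equal. Creb3l1, a transcription factor that drives collagen secretion in bone, read 70.6 and 87.0, 1.23-fold higher. Tmem38b, an ion channel of the endoplasmic reticulum, and Sec24d, a coat protein of export vesicles, were 1.14-fold and 1.12-fold higher. Tmem38b had 3 probe sets, whose log2 differences spanned -0.16 to 0.35. Of 10 genes 6 were higher and 4 lower.

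Outside the cell, proteases trim the propeptides and oxidases cross-link the fibres. Bmp1, the protease that removes the carboxy-terminal propeptide, read 81.1 in the wild type and 83.3 in the mutant. Adamts3 read 22.3 and 26.1, 1.17-fold higher, Adamts2 read 99.5 and 94.0, 1.06-fold lower, and Pcolce, an enhancer of Bmp1, read 604 and 628. Lox, lysyl oxidase, read 324 and 394, 1.22-fold higher, and its other probe set also was higher, by 0.06 on the log2 scale. Pxdn, the peroxidase that cross-links type IV collagen, read 604 and 574, 1.05-fold lower, but equal with array medians set equal (0.0005). Tgm2, a transglutaminase, read 338 and 359.9 on its representing probe set. One further Tgm2 probe set read 6.02 and 3839, while the other 4 above the filter were 1.07-fold to 1.18-fold higher.

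Among collagen receptors, the discoidin domain receptors went opposite ways. Ddr1, which is known from epithelia, read 491 in the wild type and 588 in the mutant, a log2 difference of 0.26, and its 5 probe sets ranged from 0.01 to 0.56. Its stromal relative Ddr2, named after its value was seen, read 161 and 138, 1.16-fold lower. Itga1, a collagen-binding integrin chain, read 208 and 245, 1.18-fold higher. Gp6, the platelet receptor, read 15.5 and 18.4, close to the filter. Of the 6 receptor genes above the filter 3 were higher and 3 lower.

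**Figure D4:**
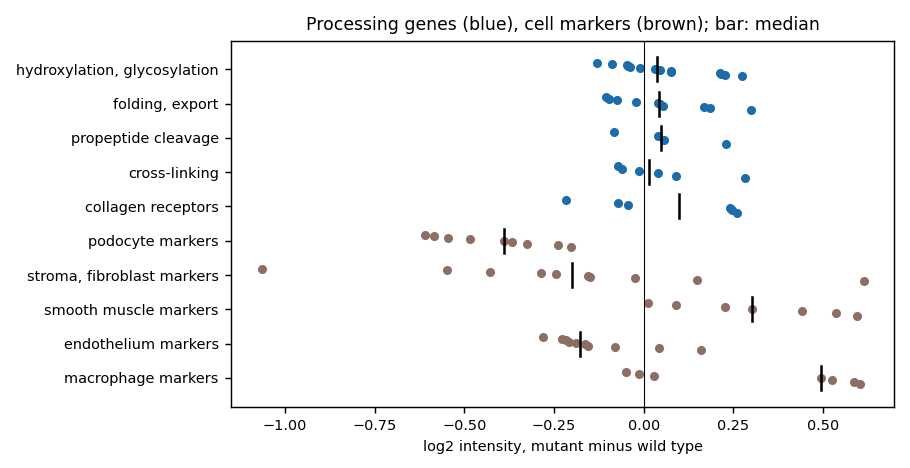
Log2 difference, mutant minus wild type, of the collagen processing and receptor genes above the filter (blue, by step) and of 5 lists of cell markers (brown), with a black bar at each median. All processing genes differ by less than 25% on the probe set that represents them, while the 9 podocyte markers lie below 0 and the 7 smooth muscle markers above it.

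Type IV had the highest median of the 3 broad classes in each setting, and the fibrillar genes came next except when probe sets were averaged or those with the suffixes _x_at, _s_at and _a_at were left out. As reported the gaps between these medians (0.06, 0.03 and -0.02) were smaller than the scatter of 0.12 between probe sets of a gene. Every setting read the same 2 arrays, and changing the floor left the medians as they were, so the order is no further evidence. The median log2 difference of the type IV genes lay between 0.05 and 0.13 in the 12 alternatives tried, and above that of all genes in each of the 11 they share. For the fibrillar genes the median ranged from -0.11 to 0.10, and for the other types from -0.08 to 0.05, so their directions depend on the setting.

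**Figure D5:**
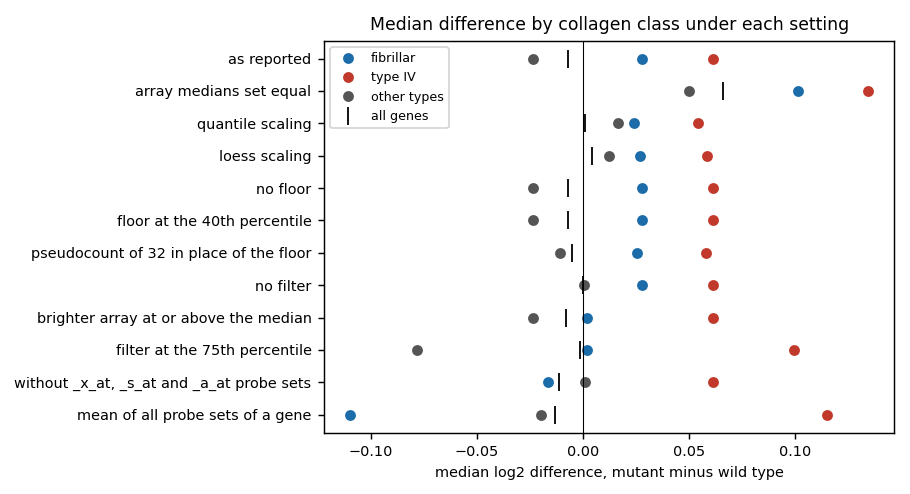
Median log2 difference, mutant minus wild type, of the fibrillar (blue), type IV (red) and other (grey) collagen genes above the filter, with the median of all genes as a black tick, for the values as reported and for 11 alternatives. The type IV median lies above 0 and above the tick for all genes in each setting, while the fibrillar and other medians lie on either side of 0.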

How the data were processed

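The authors' deposited intensity is the dChip expression index per probe set, from biotin-labelled RNA (100 ng per the labels' protocols). Per the file headers, Affymetrix control probe sets were left out and averaging used the standard error. The deposited score columns give a signed fold and its bounds. How background was removed and arrays were scaled is not given in the sources used, so ratios of dim values are least sure. Both deposited files held equal intensities in all 45037 probe sets.

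Genes were assigned from the deposited annotation, updated by Entrez identifier through a RefSeq table for genes that are not members. Probe sets naming 1 gene (37579) were used, and those with several (1467) or none (5991) were left out. Col26a1 is deposited under an older symbol and is therefore no member. Named were all collagen genes, 6 preset processing genes, and the 3 genes farthest from 0 in each processing list. Members and lists were chosen with earlier results of these data known. The filter uses the mean log2 intensity of both arrays, which a single bright array can carry past it. Alternatives were 3 scalings, other floors and filters, a pseudocount of 32, averaged or fewer probe sets, other folds and the authors' lower bound. Counting was tested on simulated data. Python 3.11.15 with pandas 2.3.3 and statsmodels 0.14.6 was used.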

Additional observations from a re-analysis of the deposited data

How the results depend on the processing

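The medians of the collagen classes and of the processing genes moved by less than 0.12, the median scatter between probe sets of a gene, in all settings but 1: averaging all probe sets of a gene gave a fibrillar median of -0.11 in place of 0.03. None of the 4 genes at least 1.5-fold apart changed direction in any setting that gave it a value. Every setting read the same 2 arrays. The probe sets of Col8a1, Col9a1 and Col25a1 that went the opposite way lay below the filter and entered none of these gene values. The unchanged directions are therefore no further evidence. The count of the 4 genes and that of the 5 probe sets depended on dim values. With a pseudocount of 32 there were 0 genes and 1 probe set, with the filter at the 75th percentile 0 genes and 0 probe sets, and without a filter 8 probe sets. Counted from a difference of 25% there were 7 genes and 16 probe sets, and at 2-fold 0 genes and 1 probe set. With 1 array per group, leaving out a replicate was not possible. No paired analysis was possible because the result comes from no test and each group holds 1 array.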

Other observations

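The probe set of Tgm2 that read 6.02 in wild type and 3839 in mutant differed by 9.32 on the log2 scale, while the 5 other Tgm2 probe sets above the filter lay between 0.09 and 0.23. It carries the suffix _x_at, which Affymetrix gives to sets with probes that can match other transcripts. Its cause was not tested.

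Ucp1, the uncoupling protein of brown fat, read 46.5 in wild type and 158 in mutant, while Adipoq, an adipocyte hormone, read 59.8 and 45.6, and Fabp4, a fatty acid carrier of fat cells and endothelium, read 2150.5 and 2050.2.

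Of 7 ureteric and collecting duct markers above the filter 4 were higher and 3 lower, with summed intensities of 3661 and 3104 over the 9 measured. Skeletal muscle had 2 markers above the filter, 1 in each direction.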
